A study of Saccharomyces cerevisiae with 5 samples.

Results

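The genes described here carry the standard symbols MRP, MRPL or MRPS followed by a number, the names given to proteins of the mitochondrial ribosome (mitoribosome) in budding yeast, Saccharomyces cerevisiae. The rule, applied to the symbols of the R64 annotation, found 56 genes among the 6567 features of the expression table, and all 56 passed the filter on low values used below (a mean of at least 5 FPKM over the 5 strains). By the uniform ribosomal protein names that the annotation lists as synonyms, 38 belong to the large subunit and 17 to the small subunit. The last, MRP8, is annotated as a protein first thought to be mitoribosomal from its sequence and has no such name, so it is described apart and the other 55 are called mitoribosomal genes. Poly(A) RNA was sequenced from asynchronous cultures in mid-log phase on rich medium at 30 °C, in 4 mutants and a WT strain. The mutants were ino80d (strain WYY0193, ino80::LEU2), arp8d (WYY0196, arp8::LEU2), arp5d (WYY0194, arp5::LEU2) and ies6d (WYY0195, ies6::LEU2), each without 1 subunit of INO80, a chromatin remodelling complex that moves nucleosomes. All are labelled as BY4741 derivatives. WT was BY4741 itself, of genotype MATa with the mutations his31, leu20, met150 and ura30 as the labels spell them. LEU2 stands in place of each deleted gene, so an effect of the marker cannot be told apart from that of the missing subunit.

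The table holds 1 FPKM value (fragments per kilobase of feature, scaled to the number of mapped fragments) per feature and strain, which stands for 2 biological replicates. There is thus no replicate error and no test, and each difference below is a size only. The depth of the libraries is unknown. The deleted gene lay at 0.0257 to 0.211 FPKM in its own strain. LEU2 lay at 81.3 to 124.8 FPKM in the mutants and 0.0619 FPKM in WT. The strains also differed at MET17, which the met15 mutation of BY4741 affects, and at LYS2. MET17 was high in ino80d and arp8d (807 and 564 FPKM) and below 1 FPKM in arp5d, ies6d and WT. LYS2 was near 0 in ino80d and arp5d (0.0138 and 0.0390 FPKM), against 36.9 FPKM in WT. Whether WT is the direct parent of each mutant is thus not known. The part of these differences in the values below was not tested.

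The mitoribosome translates the few messages of the mitochondrial genome, most of which encode core subunits of the respiratory chain and ATP synthase. Nearly all of its proteins are encoded in the nucleus, made in the cytosol and imported, while its ribosomal RNAs and the small subunit protein Var1 come from mitochondrial DNA. Some of its proteins descend from those of the bacterial ribosome, and others have no bacterial counterpart. Yeast cells that lose mitochondrial translation cannot respire and tend to lose their mitochondrial DNA. Many messages for mitoribosomal proteins are bound in their 3′ untranslated regions by Puf3, an RNA-binding protein of the Pumilio family that recognises TGTANATA and is known for binding messages of mitochondrial proteins. No feature of the mitochondrial genome, VAR1 included, is in the table.

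The Puf3 sequence is shown first because the mitoribosomal genes share it although the rule used names only. TGTANATA was searched on the coding strand in the 200 bases after each stop codon of the R64 genome, which has the assembly of sacCer3, the build of the deposited values. All 55 mitoribosomal genes had at least 1 match, 38 of 38 for the large and 17 of 17 for the small subunit, against 844 of 6001 annotated open reading frames (ORFs), or 14.1%. MRP8 had none. Of the 55, 44 had a C placed as in CNTGTANATA, against 253 of all ORFs (4.22%). On the opposite strand of the same window, where the motif reads TATNTACA, 10 of the 55 had a match (18.2%), against 13.2% of all ORFs. In the 200 bases before the start codon, 5 of the 55 had TGTANATA (9.09%), against 4.97%. The first match began between base 8 and base 139 after the stop codon, with a median at base 52, and 11 genes had more than 1. The ends of the transcripts were not measured here, so a match is a stretch of genome and not a mapped site.

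The lines below give the first match of the genes whose values stand out later, from the RefSeq copy of R64. The matched bases are in capitals and each line runs 5′ to 3′ on the coding strand. MRPL8, MRP49, MRPL31 and MRPL22 were lower than WT in all 4 mutants, MRP35, MRPL37, MRPS8 and MRP21 were higher, and MRPL39 and MRPS12 had the highest mean levels of their subunits.
MRPL8: tattccctTGTAAATAtatagatg
MRP49: tttgttcaTGTATATAtcaaaaaa
MRPL31: atttcatcTGTATATAgtttaatc
MRP35: ggtcttcaTGTATATAaataagta
MRPL37: ggtatcctTGTAAATAaatatgtg
MRPS8: acggaccaTGTAAATAataatatt
MRP21: tccgtcttTGTAAATAggtaatgc
MRPL39: atttatccTGTAAATAagtaatgg
MRPS12: caacctttTGTAAATAgcaatgac
MRPL22: tgtgattcTGTAAATAacaactag
They lie at chrX:315717-315740 (minus strand), chrXI:133681-133704 (minus), chrXI:185228-185251 (minus), chrXIV:397924-397947 (minus), chrII:741641-741664 (plus), chrXIII:572764-572787 (plus), chrII:49404-49427 (plus), chrXIII:251210-251233 (minus), chrXIV:694272-694295 (minus) and chrXIV:303535-303558 (minus), in the same order. Each line was picked as a match of TGTANATA, so lower and higher genes could differ in these bases only at N.

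Within the 55 genes, those with and without CNTGTANATA were both near WT by median in ino80d, arp8d and arp5d, and above it in ies6d. The ratio used throughout is the log2 ratio of FPKM + 1 of a mutant to WT, so that 1 stands for 2-fold. Over the 44 genes with CNTGTANATA the median log2 ratios in ino80d, arp8d, arp5d and ies6d, the order kept below, were 0.02, 0.04, 0.06 and 0.14, and over the 11 without it 0.10, 0.04, 0.08 and 0.30. The 204 other kept ORFs with CNTGTANATA had medians of -0.01, 0.01, 0.01 and 0.07. PUF3 itself was a low gene, at 10.4 (ino80d), 11.6 (arp8d), 8.88 (arp5d) and 9.24 (ies6d) FPKM, against 8.44 FPKM in WT.

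Other lists differed in these sequences. Of 22 mitoribosomal genes that carry other names (RSM, IMG, PET123 and the like), 21 had TGTANATA after the stop codon, all but RSM22. Of 32 nuclear-encoded subunits of the respiratory chain and of ATP synthase 4 had it (12.5%), and of 137 genes of cytosolic ribosomal proteins 6 (4.38%). CCAAT, the core bound by the Hap2/3/4/5 activator of respiratory genes, was searched on both strands of the 300 bases before the start codon. It was in 18 of the 55 mitoribosomal genes (32.7%), 13 of them large and 5 small subunit genes, against 29 of the 32 respiratory genes (90.6%) and 41.8% of all ORFs. AGGGG, the stress element bound by Msn2 and Msn4, was in 6 of the 55 (10.9%) and in 22.2% of all ORFs in the same window, both strands counted.

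**Figure D1:**
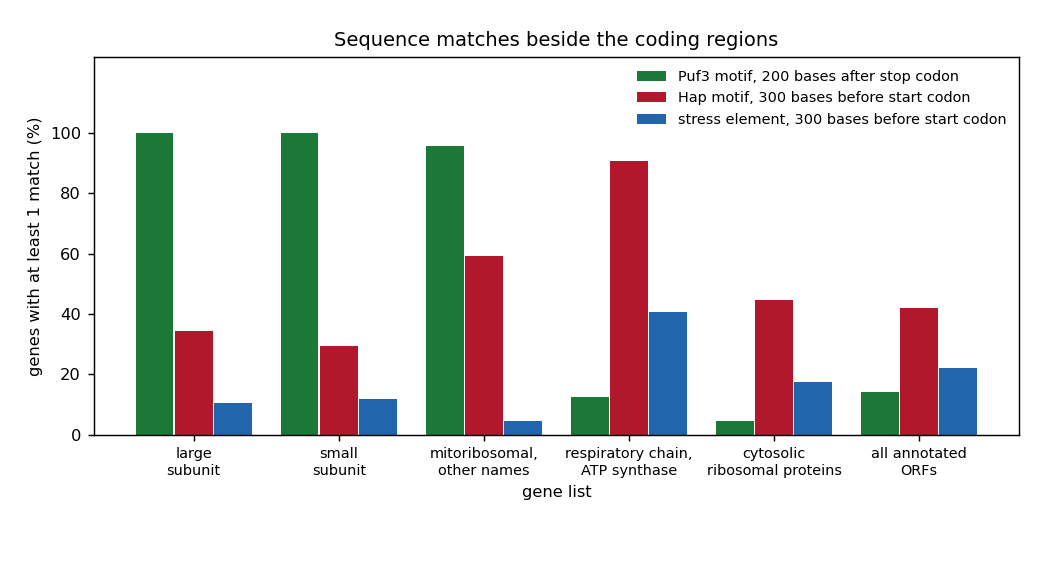
Share of genes (%, vertical axis) with at least 1 match of TGTANATA in the 200 bases after the stop codon (green), CCAAT in the 300 bases before the start codon (red) and AGGGG in the same 300 bases (blue), for 6 gene lists. Green bars reach 100% for both mitoribosomal subunits and 95.5% for mitoribosomal genes with other names, while the red bar is tallest for the respiratory chain at 90.6%.

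Mitoribosomal genes were expressed above the middle of the table in each strain. The median over the 55 genes was 119, 127, 121 and 134 FPKM in ino80d, arp8d, arp5d and ies6d, against 132 FPKM in WT, where 72.7% of all features lay lower. Large subunit genes had medians of 115, 126, 119.5 and 134 FPKM in the mutants and 133 FPKM in WT. Small subunit genes had 161, 144, 151 and 175 FPKM in the mutants and 125.02 FPKM in WT. The small subunit median was thus the higher one in each mutant and the lower one in WT, although the ranges between the quartiles overlapped widely. In WT that range ran from 98.5 to 174 FPKM for the large and from 96.7 to 232 FPKM for the small subunit.

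Shorter genes had higher levels in both subunits. In WT, genes under 500 bp had a median of 183 FPKM in the large subunit (n = 16) and 319 FPKM in the small (n = 6), and other ORFs of that length had 197 FPKM. From 500 to under 800 bp the medians were 115 FPKM for the large (n = 11), 125.02 FPKM for the small subunit (n = 3) and 113 FPKM for other ORFs. Genes of 800 to under 1200 bp had 96.4 FPKM in the large (n = 11) and 100.2 FPKM in the small subunit (n = 8), against 76.2 FPKM for other ORFs. The small subunit median was thus above the large subunit median in each class of length in WT, although it lay below it over all genes.

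Ranked by the mean of the 5 strains, the highest large subunit genes were MRPL39 (bL33m), MRPL33 (uL30m) and MRPL44 (mL53). MRPL39 (YML009C, chromosome XIII, 251304 to 251516) lay at 752 (ino80d), 797 (arp8d), 729.7 (arp5d) and 1007 (ies6d) FPKM, against 951 FPKM in WT, so that ies6d was highest and arp5d lowest. MRPL33 lay at 482 (ino80d), 460.2 (arp8d), 469 (arp5d) and 638 (ies6d) FPKM, against 482 FPKM in WT, and its 4 values outside ies6d were close to each other. MRPL44, the only 1 of the 56 genes with an intron in its coding region, lay at 319 (ino80d), 415 (arp8d), 376 (arp5d) and 400.4 (ies6d) FPKM, against 433 FPKM in WT. The highest small subunit genes were MRPS12 (uS12m, whose bacterial homologue lies at the decoding site), MRP10 (mS37) and MRPS16 (bS16m). MRPS12 (YNR036C, chromosome XIV, 694361 to 694822) lay at 498 (ino80d), 515 (arp8d), 479 (arp5d) and 583 (ies6d) FPKM, against 452 FPKM in WT, with WT the lowest of the 5. MRP10 lay at 403 to 507 FPKM in the mutants and 484 FPKM in WT, and MRPS16 at 423 to 474 FPKM in the mutants and 382 FPKM in WT.

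At the low end stood MRPL38 (uL14m), a core protein of the large subunit, at 21.9 (ino80d), 29.3 (arp8d), 21.2 (arp5d) and 30.6 (ies6d) FPKM, against 28.3 FPKM in WT. The table also lists YKL169C, an unannotated ID numbered next to it, at 178 to 239 FPKM in the mutants and 229 FPKM in WT. Its coordinates were not used here, so whether reads of MRPL38 were counted for it was not tested. MRPL4 (uL29m), whose bacterial homologue lies at the exit of the peptide tunnel, was the next lowest at 41.6 to 57.8 FPKM in the mutants and 39.2 FPKM in WT, followed by MRPL24 (bL28m) at 86.6 to 99.8 FPKM in the mutants and 69.2 FPKM in WT. The lowest small subunit genes were MRPS5 (uS5m) at 77.0 to 85.3 FPKM in the mutants and 67.3 FPKM in WT, MRPS35 (mS45) at 63.2 to 89.9 FPKM in the mutants and 76.3 FPKM in WT and MRPS28 (uS15m) at 80.3 to 97.0 FPKM in the mutants and 72.3 FPKM in WT. No gene of the 56 was listed at 0 in any strain.

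Against WT, mitoribosomal genes were near WT by median in ino80d, arp8d and arp5d and slightly above it in ies6d. The median log2 ratio over the 55 genes was 0.03, 0.04, 0.08 and 0.17, and the median over all 6192 kept features was -0.01, -0.02, -0.02 and -0.02. In ies6d it depended on coding length. Below 500 bp the median was 0.11 for mitoribosomal genes and 0.13 for other ORFs, so it was not higher there. From 500 to under 800 bp it was 0.32 against 0.03, and from 800 to under 1200 bp 0.14 against 0.02. All 4 ratios of a gene share its single WT value. Of all 56 genes, 2 were at least 1.5-fold higher in ino80d, against 15.1% of kept features, and 2 at least 1.5-fold lower, against 13.2%. In arp8d 1 was higher (background 11%) and 2 lower (8.33%). In arp5d 2 were higher (background 13.3%) and 2 lower (10.9%). In ies6d 4 were higher (background 14.4%) and 1 lower (10.4%). MRP8 is 1 of the higher genes in each mutant.

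Most of the genes were close to WT. Within 0.32 of WT on the log2 scale were 41, 48, 45 and 38 of the 56 genes, against 48.2%, 58.7%, 52.6% and 51.6% of kept features, most of which have lower levels than the mitoribosomal median. At that smaller threshold, 7 of the 56 were higher and 8 lower in ino80d (background 26.1% and 25.7%), and 3 higher and 5 lower in arp8d (background 20.5% and 20.8%). In arp5d 4 were higher and 7 lower (background 23.4% and 24%), and in ies6d 16 were higher and 2 lower (background 24.7% and 23.7%), so that only the higher genes in ies6d came near the background share. Of the 55 mitoribosomal genes, 50 stayed within 1.5-fold in all 4 mutants (background 63.6%). The 5 others were MRPL8, MRP49, MRP35, MRPL37 and MRPS8. MRPL8 was the only mitoribosomal gene at least 1.5-fold away in all 4 mutants, where 4.78% of kept features were lower and 7.98% higher. No gene was more than 0.32 above WT in 1 mutant and more than 0.32 below it in another.

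Over genes of all lengths, large and small subunit genes differed little by median. The large subunit median was 0.01, 0.03, 0.08 and 0.12 and the small subunit median 0.11, 0.04, 0.05 and 0.23. Their difference, large minus small, was -0.10, -0.0021, 0.036 and -0.11, in each case less than the distance between the quartiles of either list. With means in place of medians it was negative in all 4 mutants, at -0.12, -0.079, -0.095 and -0.095. Among genes under 500 bp the subunits lay further apart. There the medians were -0.20, -0.08, -0.16 and 0.09 for the large (n = 16) and 0.14, 0.09, 0.09 and 0.34 for the small subunit (n = 6). In the longer classes of length the small subunit median was the higher one in ino80d and ies6d and the lower one in arp8d and arp5d. The large subunit, which has more genes, also had the wider range. In ino80d the ratios of large subunit genes ran from -1.16 to 0.73 and those of small subunit genes from -0.34 to 0.44, and in arp8d from -1.04 to 0.44 and from -0.20 to 0.25. In arp5d they ran from -1.12 to 0.67 and from -0.26 to 0.49, and in ies6d from -0.79 to 0.71 and from -0.06 to 0.72. The lowest member in each mutant was a large subunit gene. Higher than WT in all 4 mutants were 34.8% of kept features, against 14 of 38 large and 9 of 17 small subunit genes, so that the large subunit count is near the background. Lower in all 4 were 38.8% of kept features, against 7 large and 1 small subunit gene.

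**Figure D2:**
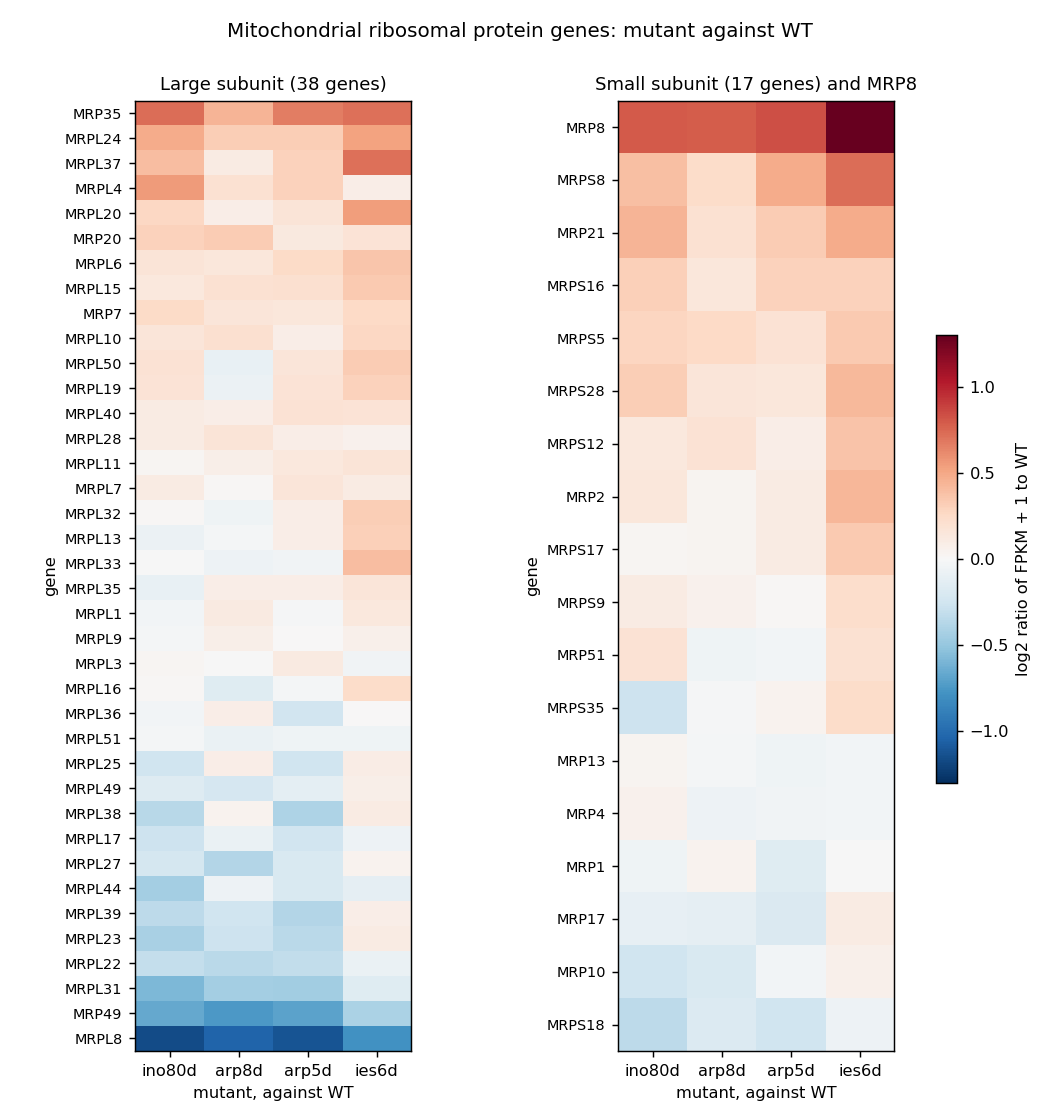
Log2 ratio of FPKM + 1 to WT (colour, red higher and blue lower than WT) for each gene (rows, sorted by mean ratio) in each mutant (columns), with the large subunit on the left and the small subunit and MRP8 on the right. Most cells are pale. MRPL8 is the darkest blue row, with -1.16, -1.04, -1.12 and -0.79 in the 4 mutants, and MRP8 the darkest red, with 0.79, 0.79, 0.84 and 1.29.

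MRPL8 (YJL063C, chromosome X, 315759 to 316475), the bL17m protein of the large subunit, was the lowest of the 56 genes relative to WT in each mutant. It lay at 78.0 (ino80d), 84.8 (arp8d), 80.3 (arp5d) and 101.3 (ies6d) FPKM, against 175 FPKM in WT. The 4 mutant values were all below WT, with ies6d nearest to it, and the log2 ratios were -1.16, -1.04, -1.12 and -0.79. Genes on both sides of MRPL8 had lower values than WT as well. DLS1, a subunit of a chromatin accessibility complex, follows it on the same strand after 201 bp and lay at 34.0 (ino80d), 32.1 (arp8d), 28.7 (arp5d) and 38.9 (ies6d) FPKM, against 50.8 FPKM in WT. COA3, an assembly factor of cytochrome c oxidase, starts 247 bp away on the opposite strand and lay at 610.0 (ino80d), 539.6 (arp8d), 653 (arp5d) and 686 (ies6d) FPKM, against 837 FPKM in WT. The log2 ratios were -0.57, -0.65, -0.80 and -0.38 for DLS1 and -0.46, -0.63, -0.36 and -0.29 for COA3, nearer to 0 than those of MRPL8 in each mutant. YJL064W, an unannotated ID numbered between MRPL8 and DLS1, lay at 118 (ino80d), 126 (arp8d), 97.8 (arp5d) and 134 (ies6d) FPKM, against 198 FPKM in WT. The libraries do not record strand, so reads from the opposite strand cannot be told apart. The 300 bases before MRPL8 held neither CCAAT nor AGGGG.

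MRP49 (YKL167C, chromosome XI, 133721 to 134134), the mL61 protein of the large subunit, which is annotated as not essential for mitochondrial translation, was the next lowest. It lay at 108 (ino80d), 101.4 (arp8d), 105 (arp5d) and 129 (ies6d) FPKM, against 171 FPKM in WT. Again all 4 mutants were below WT, with log2 ratios of -0.66, -0.75, -0.70 and -0.41 and ies6d closest. Its neighbours did not share this direction. KKQ8 lay at 23.8 to 28.3 FPKM in the mutants and 17.01 FPKM in WT, and TPK3, a catalytic subunit of protein kinase A, at 82.7 to 93.4 FPKM in the mutants and 77.4 FPKM in WT. MRPL31 (mL60, YKL138C, chromosome XI, 185286 to 185681) lay at 191 (ino80d), 210.4 (arp8d), 209.9 (arp5d) and 257 (ies6d) FPKM, against 287 FPKM in WT, with log2 ratios of -0.58, -0.44, -0.45 and -0.16.

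Smaller differences of the same kind were seen for MRPL22 and MRPL23. MRPL22 (uL22m), whose bacterial homologue lines the peptide exit tunnel, lay at 97.7 to 117 FPKM in the mutants and 124 FPKM in WT. MRPL23 (uL13m) lay at 117 (ino80d), 130.2 (arp8d), 123 (arp5d) and 169 (ies6d) FPKM, against 157 FPKM in WT, so that it was lower in 3 mutants and slightly higher in ies6d. The only small subunit gene below WT in all 4 mutants was MRPS18 (uS11m), at 177 to 214 FPKM in the mutants and 224 FPKM in WT.

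**Figure D3:**
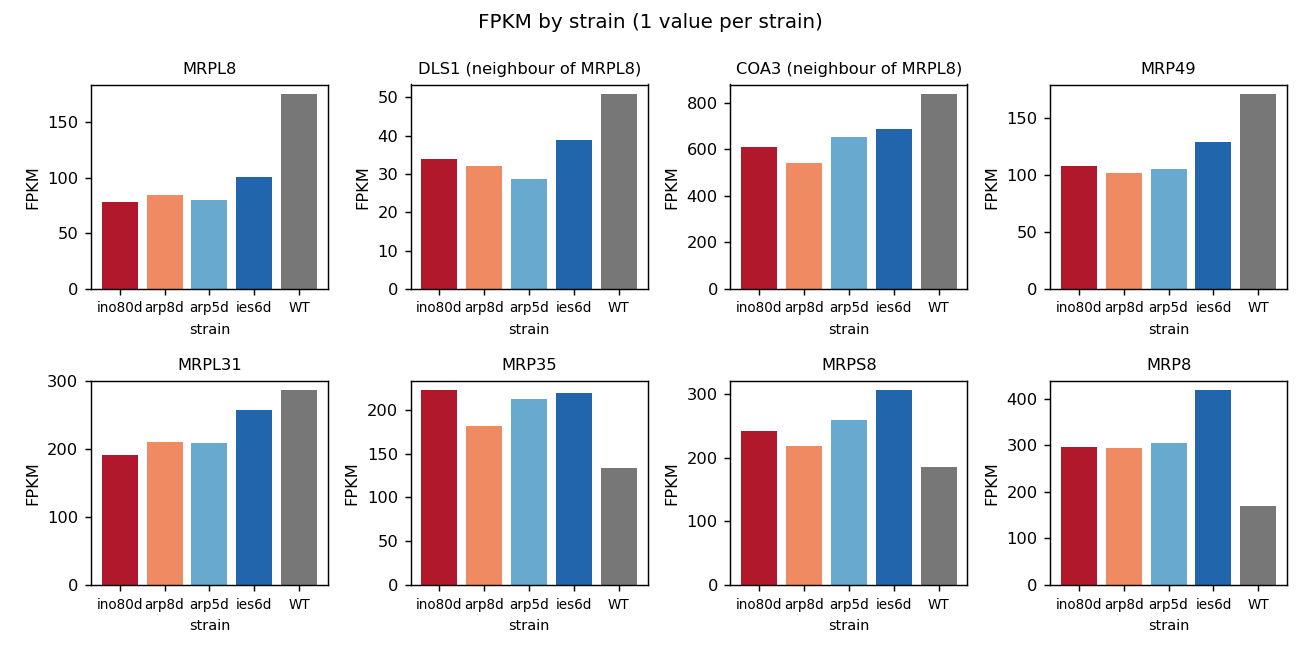
FPKM (vertical axes, from 0) in ino80d, arp8d, arp5d, ies6d and WT for MRPL8, its neighbours DLS1 and COA3, and 5 other genes; each bar is the single value of a strain. In the panels of MRPL8, DLS1, COA3, MRP49 and MRPL31 the WT bar is the tallest, at 175 FPKM for MRPL8, and in those of MRP35, MRPS8 and MRP8 it is the shortest, at 170.4 FPKM for MRP8.

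The highest mitoribosomal gene by mean ratio was MRP35 (YNL122C, chromosome XIV, 398023 to 398370), the bL35m protein of the large subunit. It lay at 222 (ino80d), 181 (arp8d), 212 (arp5d) and 219 (ies6d) FPKM, against 133 FPKM in WT, with log2 ratios of 0.73, 0.44, 0.67 and 0.71, above WT in each mutant and least so in arp8d. Of its neighbours, TOM70, an import receptor of the outer mitochondrial membrane, was below WT in each mutant, at 159 to 169 FPKM in the mutants and 193 FPKM in WT, and NMA111 lay at 70.6 to 85.7 FPKM in the mutants and 84.1 FPKM in WT. The 300 bases before MRP35 held CCAAT 2 times. Genes with other ratios had it too. MRPS18, below WT in all 4 mutants, held it 2 times and MRPL16, with a mean log2 ratio of 0.02, held it 3 times. MRPS8, described next, held neither CCAAT nor AGGGG. The match of MRP35 nearer to the start codon is printed here with the motif in capitals (chrXIV:398417-398441, minus strand).
MRP35 CCAAT: gaagccctcgCCAATttgcggagcc
MRPS8 (YMR158W, chromosome XIII, 572248 to 572715), the uS8m protein of the small subunit, was next, at 242 (ino80d), 219 (arp8d), 259 (arp5d) and 305 (ies6d) FPKM, against 184 FPKM in WT. Its log2 ratios were 0.39, 0.24, 0.49 and 0.72.

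MRPL24 (bL28m) lay at 97.2 (ino80d), 86.7 (arp8d), 86.6 (arp5d) and 99.8 (ies6d) FPKM, against 69.2 FPKM in WT, with like values in ino80d and ies6d. MRPL37 (mL54) lay at 340.4 (ino80d), 278 (arp8d), 318 (arp5d) and 424 (ies6d) FPKM, against 258 FPKM in WT, highest in ies6d and nearest to WT in arp8d. MRPL4 had another order of mutants. It lay at 57.8 (ino80d), 45.0 (arp8d), 48.4 (arp5d) and 41.6 (ies6d) FPKM, against 39.2 FPKM in WT, so that ino80d was highest and ies6d closest to WT. MRP20 (uL23m), like uL29 a protein of the tunnel exit in bacteria, lay at 126 to 145 FPKM in the mutants and 115 FPKM in WT and had its largest ratios in arp8d and ino80d, 0.33 and 0.30. MRP21 (bS21m) lay at 169.9 (ino80d), 144 (arp8d), 158 (arp5d) and 175 (ies6d) FPKM, against 125.02 FPKM in WT.

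Other genes, chosen after their values were seen, are given as examples and do not stand for the rest of the list. In ies6d, MRPL20 (mL58) had a log2 ratio of 0.54, at 194 (ino80d), 171 (arp8d), 180.1 (arp5d) and 234 (ies6d) FPKM, against 161 FPKM in WT. MRP2 (uS14m) had 0.43, at 257 (ino80d), 238 (arp8d), 249.6 (arp5d) and 313 (ies6d) FPKM, against 232 FPKM in WT, and was near WT in arp8d. MRPS17 (uS17m) had 0.34, at 95.4 (ino80d), 96.0 (arp8d), 100.6 (arp5d) and 119 (ies6d) FPKM, against 93.5 FPKM in WT. For each of these genes, as for MRPL33, ies6d was the highest of the 5 strains. The genes nearest to WT throughout were MRP13 (mS44), at 92.7 to 99.4 FPKM in the mutants and 96.7 FPKM in WT, MRP4, MRPL51, and MRPL9 (uL3m), whose bacterial homologue takes part in the first steps of subunit assembly, at 119 to 127 FPKM in the mutants and 121 FPKM in WT. MRPL40 (uL24m) lay at 103 to 109.8 FPKM in the mutants and 96.4 FPKM in WT, and MRPL11 (uL10m), whose bacterial homologue anchors the stalk where factors bind, at 109.5 to 121 FPKM in the mutants and 108 FPKM in WT. On the lower side, MRPL17 (mL46) was below WT in all 4 mutants, at 92.5 to 107 FPKM in the mutants and 112 FPKM in WT.

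Of the 6 mitoribosomal genes with AGGGG before the start codon, 5 (MRP21, MRPL37, MRPL4, MRPL24 and MRPS16) were higher than WT in all 4 mutants, and MRPL39 was lower in 3. Higher in all 4 were 23 of the 55 genes, 34.8% of all kept features and 44.2% of 1261 other kept ORFs with AGGGG. The median log2 ratios of the 6 were 0.42, 0.17, 0.30 and 0.39. Over the 49 genes without it the medians were 0.02, 0.02, 0.02 and 0.15. The other ORFs with AGGGG had 0.07, 0.05, 0.07 and 0.09. With 6 genes, set apart after their values were seen, this is a description only. For CCAAT the 18 genes with a match had medians of 0.03, 0.05, 0.10 and 0.17, close to those of all 55.

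MRP8 (YKL142W, chromosome XI, 178515 to 179174) had the highest ratio of the 56 in each mutant. The annotation gives it as a hypothetical protein that is sumoylated and whose transcription is induced under cell wall stress. It lay at 296 (ino80d), 295 (arp8d), 306 (arp5d) and 418 (ies6d) FPKM, against 170.4 FPKM in WT, with log2 ratios of 0.79, 0.79, 0.84 and 1.29. All mutants were above WT, ies6d the most. SDH3, a subunit of succinate dehydrogenase that follows it on the same strand after 492 bp, lay at 438 (ino80d), 358 (arp8d), 457 (arp5d) and 493 (ies6d) FPKM, against 251 FPKM in WT, and LTV1 on its other side at 127 to 149 FPKM in the mutants and 155 FPKM in WT. MRP8 lacked the Puf3 sequence and had AGGGG on the coding strand, printed with the motif in capitals (chrXI:178311-178335, plus strand).
MRP8 AGGGG: tttcggagaaAGGGGgtggaggaag

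Of the 4 mutants, ies6d had the highest values for most mitoribosomal genes. It was the highest of the 5 strains for 34 of the 55 genes, against 19.9% of kept features, and the lowest for 1. That background is not matched for level or length. FPKM summed over all features was 3.71e+06 in ies6d, the largest sum, and 2.77e+06 to 3.38e+06 in the other strains. The median feature lay at 53.4 to 54.7 FPKM in the 5 strains. The part of the unequal sums in these counts was not tested. WT was the lowest for 23 (background 34.8%). Set against the other mutants, which leaves WT out, ies6d was higher for 46 of 55 over ino80d (background 50.8%), 46 over arp8d (51.3%) and 49 over arp5d (51.1%). These 3 comparisons share the ies6d value. The median log2 ratio of ies6d was 0.20 to ino80d, 0.20 to arp8d and 0.19 to arp5d, where kept features had 0.0042, 0.0068 and 0.0048. All 17 small subunit genes were higher in ies6d than in arp5d, and so were 32 of 38 large subunit genes.

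Shorter genes had higher ratios of ies6d to the other mutants, and this was so among other ORFs as well. For ies6d over arp5d, the median log2 ratio below 500 bp was 0.27 over 22 mitoribosomal genes and 0.14 over 811 other ORFs. From 500 to under 800 bp it was 0.21 over 14 mitoribosomal genes and 0.09 over 805 other ORFs. From 800 to under 1200 bp it was 0.15 over 19 mitoribosomal genes and 0.03 over 1124 other ORFs. The mitoribosomal median was above that of other ORFs in each length class. The same held over ino80d and arp8d, with 0.28 against 0.21 and 0.29 against 0.22 below 500 bp, 0.21 against 0.13 and 0.23 against 0.10 in the middle class, and 0.06 against 0.05 and 0.07 against 0.04 in the longest. The part of length or of library preparation in the ies6d values was not tested. Genes of chromosome XI, which holds 7 of the 56 genes, had a median of 0.11 over WT in ies6d. Chromosome III holds MRPL32 and, by their systematic IDs, IMG1, IMG2 and SLM5. Its median in ies6d was 0.36, with 33.3% of its kept features at least 1.5-fold higher than WT (background 14.4%). Chromosome I, which holds none of the 56 genes, had a median of 0.69 over WT in ino80d. The part of the chromosome in the values of single genes was not tested.

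**Figure D4:**
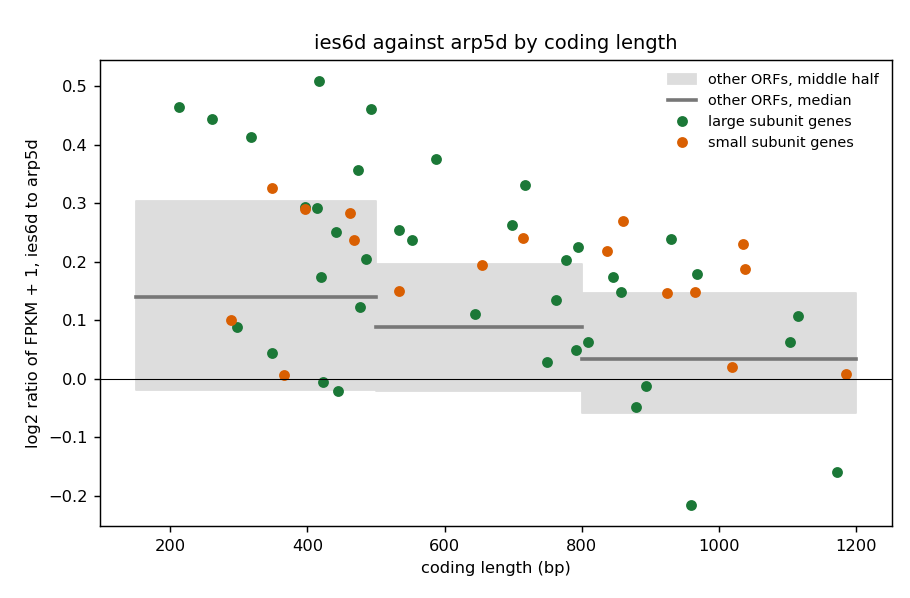
Log2 ratio of FPKM + 1 of ies6d to arp5d (vertical axis) against coding length in bp (horizontal axis) for large subunit genes (green) and small subunit genes (orange). Grey bands and lines give the quartiles and the median of other kept ORFs in 3 classes of length. Most points lie above 0, and 49 of 55 do so.

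By descent, the 37 genes with a bacterial homologue had medians over WT of 0.11, 0.06, 0.09 and 0.23, and the 18 genes for mitochondria-specific proteins -0.08, -0.02, -0.04 and 0.06. The mitochondria-specific genes were thus lower by median in each mutant, by less than the distance between the quartiles of either class. The classes were not matched for length, and the part of length in this difference was not tested. Mitoribosomal genes under 500 bp, of both classes together, had medians of -0.07, -0.07, -0.05 and 0.11. Above WT were 25, 23, 23 and 33 of the 37 and 6, 7, 8 and 10 of the 18, where kept features had 48.8%, 47.4%, 48% and 47.6% above WT. Within the large subunit the medians were 0.02, 0.06, 0.08 and 0.17 for 24 genes with a bacterial homologue and -0.08, -0.02, 0.01 and 0.06 for 14 without, and within the small subunit 0.14, 0.06, 0.10 and 0.34 for 13 and -0.16, -0.02, -0.05 and 0.03 for 4. Both extremes, MRPL8 and MRP35, have a bacterial homologue.

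The remaining genes of the mitoribosome were near WT too. The 22 genes with other names had median log2 ratios of -0.02, 0.04, 0.05 and 0.19, none of them at least 1.5-fold lower in any mutant, and 0, 0, 1 and 1 at least 1.5-fold higher. The lowest by mean ratio were RSM19 (uS19m), at 353 to 512 FPKM in the mutants and 476 FPKM in WT, and EHD3 (mS47), at 56.8 to 62.5 FPKM in the mutants and 67.6 FPKM in WT. The highest were RSM18 (bS18m), at 259 to 375 FPKM in the mutants and 249 FPKM in WT, and RSM26 (mS42), at 133 to 164 FPKM in the mutants and 122 FPKM in WT.

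Mitoribosomal genes lay between 2 lists whose medians had opposite signs. The 32 genes of the respiratory chain and of ATP synthase had medians of 0.81, 0.44, 0.65 and 0.93, with 23, 10, 18 and 28 of them at least 1.5-fold higher and none lower. The 135 kept genes of cytosolic ribosomal proteins had medians of -0.73, -0.56, -0.49 and -0.31, with 74.8%, 45.9%, 34.1% and 17.04% of them at least 1.5-fold lower and none higher. Among the respiratory genes QCR9 and SDH2 had the highest mean ratios, at 1451 to 2433 FPKM in the mutants and 893 FPKM in WT and 123 to 183 FPKM in the mutants and 76.1 FPKM in WT, and QCR6 and ATP15 the lowest, at 281 to 415 FPKM in the mutants and 316 FPKM in WT and 2893 to 4032 FPKM in the mutants and 2891 FPKM in WT. Among the cytosolic ribosomal genes RPS8A and RPL7B had the lowest, at 285 to 688 FPKM in the mutants and 2340.5 FPKM in WT and 80.3 to 150.1 FPKM in the mutants and 465 FPKM in WT, and RPS25A and RPS14A the highest, at 9539.6 to 13744 FPKM in the mutants and 11802 FPKM in WT and 7848 to 13118 FPKM in the mutants and 10699.6 FPKM in WT. These cytosolic genes each have a close paralog, so their values are uncertain. The counts of all 56 genes in the same terms were 2, 1, 2 and 4 higher and 2, 2, 2 and 1 lower. Each of the 3 lists had its highest median of the 4 mutants in ies6d, at 0.93 for the respiratory genes, 0.17 for the mitoribosomal and -0.31 for the cytosolic ribosomal genes. HAP4, the activating subunit of the Hap complex, lay at 169.8 (ino80d), 276 (arp8d), 221 (arp5d) and 280.4 (ies6d) FPKM, against 41.1 FPKM in WT, and HAP1, a heme-responsive activator, at 38.3 to 42.1 FPKM in the mutants and 47.2 FPKM in WT. HAP2 lay at 53.4 to 71.7 FPKM in the mutants and 33.9 FPKM in WT, HAP3 at 111 to 140.1 FPKM in the mutants and 103 FPKM in WT and HAP5 at 62.8 to 67.7 FPKM in the mutants and 53.3 FPKM in WT. Each gene of the Hap complex was thus above WT in all 4 mutants, as were 34.8% of kept features. The margin was widest for HAP4 and small for HAP3 and HAP5, with log2 ratios of 0.10 to 0.44 and 0.23 to 0.34. HAP2, HAP3 and HAP5 were added after their values were seen.

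**Figure D5:**
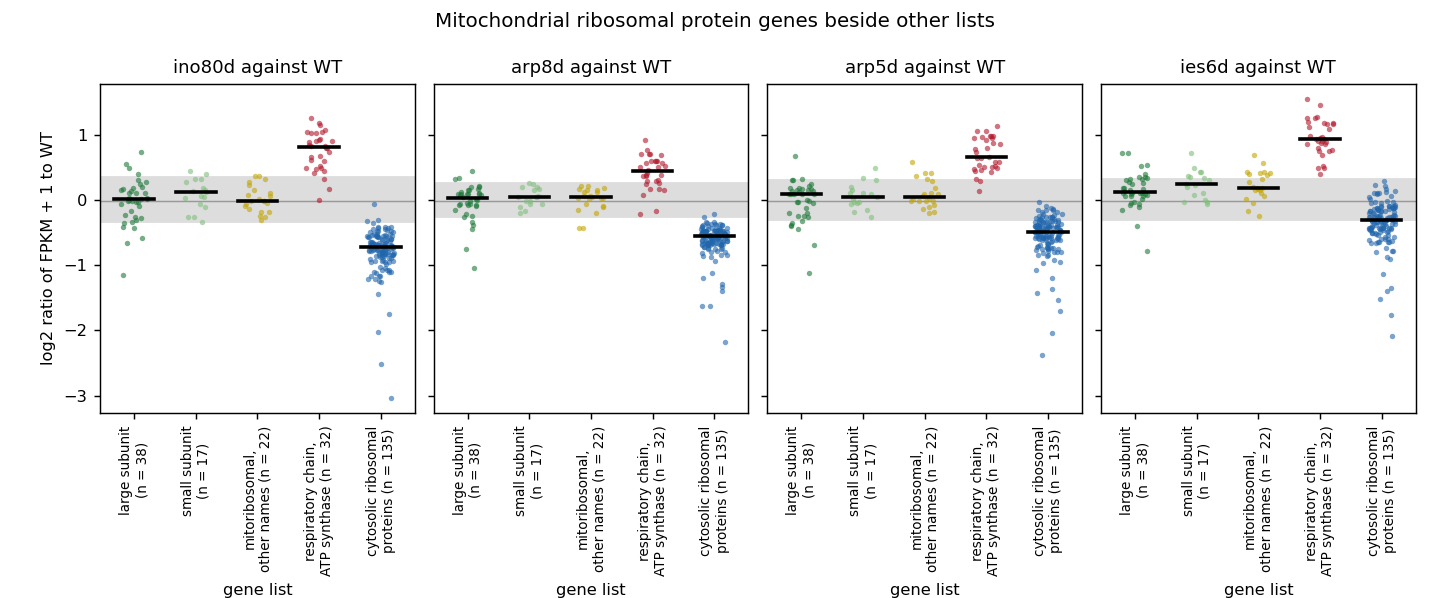
Log2 ratio of FPKM + 1 to WT (vertical axis) in the 4 mutants for 5 gene lists (horizontal axis); each point is a gene, black bars are medians, and the grey band and line give the quartiles and median of all kept features. Points of both mitoribosomal subunits and of mitoribosomal genes with other names lie mostly inside the band. Most respiratory genes lie above it, and most cytosolic ribosomal protein genes lie below the grey line, with a median of -0.73 in ino80d.

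Of 4 lists of genes that work with the mitoribosome, 3 had medians between -0.09 and 0.10 in the 4 mutants and the aminoacyl-tRNA synthetases lay slightly above it; highest and lowest here mean the mean log2 ratio over the 4 mutants. The 13 kept genes of mitochondrial translation factors and ribosome partners had medians of 0.04, 0.02, -0.02 and 0.10. Among them MBA1, which tethers the mitoribosome to the inner membrane, stood far above the rest, at 85.8 (ino80d), 82.4 (arp8d), 87.5 (arp5d) and 90.5 (ies6d) FPKM, against 11.6 FPKM in WT, with log2 ratios of 2.79, 2.73, 2.81 and 2.86. AIM23, an initiation factor, was the next highest at 41.1 to 46.6 FPKM in the mutants and 28.2 FPKM in WT. OXA1, the insertase that receives the new chains, lay at 80.6 to 90.8 FPKM in the mutants and 107 FPKM in WT, and IFM1, another initiation factor, at 10.3 to 12.1 FPKM in the mutants and 14.8 FPKM in WT. The 13 mitochondrial aminoacyl-tRNA synthetases had medians of 0.19, 0.20, 0.20 and 0.19, with MSM1, the methionyl-tRNA synthetase, at 35.5 to 37.8 FPKM in the mutants and 23.1 FPKM in WT and SLM5, the asparaginyl-tRNA synthetase, highest at 39.3 (ino80d), 29.4 (arp8d), 36.9 (arp5d) and 40.6 (ies6d) FPKM, against 12.2 FPKM in WT. MSD1, the aspartyl-tRNA synthetase, was the lowest at 16.5 to 19.4 FPKM in the mutants and 25.8 FPKM in WT, followed by MSW1, the tryptophanyl-tRNA synthetase, at 31.4 to 33.1 FPKM in the mutants and 35.6 FPKM in WT. The 14 translational activators of single mitochondrial messages had 0.10, 0.03, -0.09 and -0.08, with CBS2 (41.1 to 60.9 FPKM in the mutants and 35.7 FPKM in WT) and CBP6 (83.1 to 109 FPKM in the mutants and 63.3 FPKM in WT) highest and PET54 (42.9 to 49.1 FPKM in the mutants and 58.5 FPKM in WT) and CBP1 (19.9 to 24.2 FPKM in the mutants and 28.1 FPKM in WT) lowest. The 8 genes of the mitochondrial RNA polymerase and genome maintenance had 0.08, 0.07, -0.01 and 0.01. RPO41, the polymerase itself, was the highest at 21.7 to 29.1 FPKM in the mutants and 17.5 FPKM in WT, then MGM101 at 158 to 192 FPKM in the mutants and 158 FPKM in WT. ABF2, which packages mitochondrial DNA, was the lowest at 530.0 to 649.7 FPKM in the mutants and 684 FPKM in WT, then the helicase PIF1 at 25.4 to 29.8 FPKM in the mutants and 29.0 FPKM in WT.

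Values of 3 of the 56 genes are uncertain because their annotated regions overlap another annotated gene. Overlap with IDs that the annotation lacks, such as YKL169C and YJL064W, was not checked. MRPL51 (mL43) shares 323 bp with YPR099C and lay at 374 to 389.6 FPKM in the mutants and 397 FPKM in WT. MRPL19 (uL11m) shares 113 bp with YNL184C and lay at 132 to 173 FPKM in the mutants and 140.1 FPKM in WT. MRP4 (uS2m) shares 2 bp with YHL005C and lay at 102 to 111 FPKM in the mutants and 107 FPKM in WT. None of the 3 was 1.5-fold away from WT, and apart from these overlaps no gene of the 56 had a near-identical copy.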

How the data were processed

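Poly(A) RNA libraries (TruSeq RNA v2, which does not record strand, run on a HiSeq2000, per the labels' protocols) were made from 5 yeast strains. The authors deposited 1 table of FPKM values, 1 column per strain, each standing for 2 biological replicates per the labels. Reads were processed with TopHat2 and Cuffdiff on the sacCer3 build per the submitters' processing notes, and versions, annotation and library scaling are not given in the sources used here. Because the table has no counts, no replicate values and no depths, no test, interval or detection floor could be given. How the replicates were combined is likewise not given.

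From the table, log2 ratios of FPKM + 1 of each mutant to WT were computed for the 6192 of 6567 features with a mean of at least 5 FPKM, and for ies6d to the other mutants. The pseudocount of 1 FPKM draws ratios of low genes towards 0. Ratios of at least 1.5-fold were counted, beside the share of all kept features. Symbols, subunits and coordinates came from the RefSeq annotation of R64, which matched 5888 features. MRP35 was counted as a large subunit gene from its synonym bL35m. Motifs were searched in the R64 genome, and near copies (90% identity over 50% of the length) with blastn 2.17.0. Scripts ran in python 3.11.15 with pandas 2.3.3, numpy 2.4.6 and matplotlib 3.10.9, and were tested on simulated data.

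Genes are named by a rule: MRP8; the 3 highest and 3 lowest by level in each subunit; the 5 highest and 5 lowest by mean ratio; the 3 highest and 3 lowest in each mutant; genes 1.5-fold away in all mutants; overlapping genes; of each other list the 2 highest and 2 lowest; and PUF3, HAP1 and HAP4. Neighbours of named genes, the remaining HAP genes, MRPS18 and the genes with AGGGG were added after their values were seen. So were MRPL20, MRP2, MRPS17, MRP13, MRPL9, MRPL40, MRPL11, MRPL17, MRPL16 and MRPL32. The members and the lists were chosen with earlier results of these data known. TSF1 of the translation factor list was not matched, and RPL41A and RPL41B fell under the filter. RPP1, which has a symbol of the cytosolic ribosomal pattern but encodes a subunit of RNase P and RNase MRP, was left out of that list after its values were seen.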

Additional observations from a re-analysis of the deposited data

How the results depend on the processing

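Each value was recomputed with other pseudocounts (0.1 and 5 FPKM), without the filter or with a mean of at least 20 FPKM, with ratios centred on the median of all features, without genes on chromosomes I, III and XI, without MRP8, without the 3 genes that overlap another and with other thresholds. Of 164 alternatives for the counts, the median of all genes and the large minus small differences, 136 stayed within the tolerance (1.5-fold for a count, 0.1 on the log2 scale for a ratio) and 28 moved, and all 936 for single genes and other values stayed within it. The ratio of a single gene does not depend on the filter or on which other genes are left out. Only the pseudocounts and the centring could change it, so most of the 936 could not move. The tolerance of 0.1 is also about as large as, or larger than, most of the medians and differences it was applied to. A change of sign can thus lie within it, and these tallies do not measure how firm those values are. Without chromosomes I, III and XI, 1 gene was higher and 1 lower in ino80d, 0 higher and 1 lower in arp8d, and 1 higher and 1 lower in arp5d. Without MRP8, 1 gene was higher in ino80d, 0 in arp8d and 1 in arp5d, and without MRP35, an alternative chosen after seeing the data, 1 was higher in ino80d and 1 in arp5d. At 2-fold, 0 genes were higher and 1 lower in each of ino80d, arp8d and arp5d, and 1 higher and 0 lower in ies6d. At a threshold of 0.32 on the log2 scale, 7 were higher and 8 lower in ino80d (26.1% and 25.7% of kept features), 3 and 5 in arp8d (20.5% and 20.8%), 4 and 7 in arp5d (23.4% and 24%), and 16 and 2 in ies6d (24.7% and 23.7%). By means, the large minus small difference in arp5d was -0.095, against 0.036 by medians, a change of sign. In arp8d it was -0.0021, and it was 0.021 without the overlapping genes and 0.036 without those chromosomes, so neither difference has a settled sign. These counts rest on few genes, so 1 gene more or less moves them. No paired analysis was possible because the table holds 1 value per strain, and leaving out a replicate could not be run for the same reason. Depth is unknown, so differences of low genes such as MRPL38, MRPL4 and PUF3 are the least certain.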
